A study of Mus musculus with 63 samples.

Results

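The genes described here are the 37 of the mouse mitochondrial genome, taken as every row of the count tables whose gene name begins with mt-. They comprise 13 protein-coding genes, 2 rRNA genes and 22 tRNA genes, out of 54752 genes in the tables, and all of them lie on chrM. Each of the 57 libraries analysed held all 37 rows, so each gene has a count, which may be 0, in every library.

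The mitochondrial genome is a small circle that is transcribed from both strands into long precursors, and the tRNAs that lie between most of the other genes are cut out to free the mRNAs and rRNAs. Its mRNAs all encode core subunits of the respiratory chain or of ATP synthase, its rRNAs and tRNAs serve the mitochondrial ribosome, and every factor for its copying, transcription and RNA processing is encoded in the nucleus. Copies of mitochondrial DNA have also been inserted into nuclear chromosomes, where they are annotated as pseudogenes, and a read that matches both places equally well cannot be assigned to either from its sequence. Absorptive enterocytes of the small intestine are rich in mitochondria, and crypt stem cells depend on mitochondrial metabolism as well.

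RNA-Seq was performed on intestinal epithelial cells (IECs) and small intestinal organoids, which are 3-dimensional cultures grown from crypts, to follow the loss of the Mediator kinases CDK8 and CDK19. All mice and lines were on the C57BL/6 strain. CreERT2, a recombinase that needs tamoxifen or its active form 4-OHT to act, was driven by the Villin promoter, which is used in the intestinal epithelium, so floxed Cdk8 is meant to be lost there, whereas the Cdk19 ko allele is present in every cell from the start. IECs were taken from VillinCreERT2 mice (VilCre) and from VillinCreERT2; Cdk8 fl/fl; Cdk19 ko/ko mice (DKO) 14 days after the last tamoxifen injection, and the ages of the mice are not given in the sources used here. At 7 days, all after 4-OHT, organoids were VilCre (VillinCreERT2), Cdk8KO (VillinCreERT2; Cdk8 fl/fl), Cdk19KO (Cdk8 fl/fl; Cdk19 ko/ko, with no Cre listed), C57BL/6 (no altered allele) and DKO. A time course compared, on days 3, 5, 7 and 10, DKO-genotype organoids given 4-OHT with the same organoids given the vehicle EtOH. Both arms thus carried the Cdk19 ko and floxed Cdk8 alleles, and by their labels they differed in 4-OHT. Whether the arms were cultured, prepared and sequenced together is not given in the sources used here. The same genotype, treated with EtOH or 4-OHT, was kept in Wnt3-conditioned media for 10 days. D173A organoids (VillinCreERT2; Cdk8 fl/fl; Cdk19 ko/D173A, in which the remaining CDK19 is kinase dead) were treated with EtOH or 4-OHT and taken at 7 days. These days are not the length of exposure to 4-OHT. The columns taken as D173A organoids name EtOH and 4-OHT by a letter and give no genotype, so they were tied to this genotype by exclusion, because all other organoid columns of that table carry a letter for the Wnt3 medium.

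There were 19 groups of 3 libraries. Within each of the 17 organoid groups the columns of the 3 libraries carried 1 shared number, and 7 such numbers covered all 51 organoid libraries, with 1 number for the time course and the Wnt3-conditioned media together. As far as these names show, each organoid comparison between genotypes is 1 line against another, so that line and genotype cannot be told apart, each comparison of 4-OHT with EtOH is within 1 line, and p-values among organoids measure the spread between libraries of a line, which may be technical. The 6 IEC libraries carried 6 different numbers.

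Library totals ranged from 15485959 to 32909565 counts, with a median of 19374952. The 5 epithelial marker genes were detected in every library, with sums from 4597 to 10303 CPM (the usual depth-scaled count unit, here on library sizes scaled by TMM). The 6 immune markers summed to 0.722 to 14.4 CPM in organoids, 40.2 to 224 CPM in VilCre IECs and 500.2 to 817 CPM in DKO IECs. Counts over the whole gene do not check the genotypes, because they can include exons outside a deleted part: Cdk8 was at 75.6 ± 4.62 CPM in VilCre organoids and 80.6 ± 2.59 CPM in Cdk8KO organoids, and Cdk19 at 30.98 ± 3.10 CPM in C57BL/6 organoids and 25.6 ± 0.768 CPM in Cdk19KO organoids (mean ± SD, n = 3).

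Along a stretch of chrM from base 6390 to base 11042, 4653 bases long, 7 pseudogenes on the minus strand of chromosome 1 (mm10, chr1:24611535-24616197) match the mRNAs in turn, and it is called the copied stretch here. The copies were sought among transcripts, so the bases between the pseudogenes, which on chrM hold the tRNAs mt-Ts1, mt-Td, mt-Tk, mt-Tg and mt-Tr and most of mt-Atp8, were not compared with chromosome 1. Of the 37 genes, 11 lie wholly inside it, among them the mRNAs mt-Co2, mt-Atp8, mt-Atp6, mt-Co3, mt-Nd3 and mt-Nd4l, and 2 lie partly inside it, mt-Co1 and mt-Nd4. Each of the 7 pseudogenes was paired with 1 gene over at least 100 aligned bases at an identity of at least 99%. Gm28661 matched 681 bases of mt-Co2, Gm10925 matched 678 bases of mt-Atp6 and the last 43 bases of mt-Atp8, Gm28437 matched 783 bases of mt-Co3, Gm10222 matched 294 bases of mt-Nd4l and Gm28439 matched 876 bases of mt-Nd4, all with 0 differing bases. Gm29216 and mt-Co1 differed at 1 of 483 bases, and Gm28438 and mt-Nd3 at 1 of 345 bases. The reference sequences of both pairs that can be told apart follow for 60 bases of the coding strand, with the differing base in capitals, because the results on mt-Nd3 are given beside those of its copy. The sequences were read from the GENCODE vM21 transcripts, which are of the mm10 build.
mt-Nd3 (chrM:9459-9518): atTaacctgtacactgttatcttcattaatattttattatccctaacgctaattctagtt
Gm28438 (chr1:24613060-24613119, minus strand): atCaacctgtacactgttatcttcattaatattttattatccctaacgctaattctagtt
mt-Co1 (chrM:6390-6449): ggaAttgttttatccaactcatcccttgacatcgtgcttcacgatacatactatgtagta
Gm29216 (chr1:24616129-24616188, minus strand): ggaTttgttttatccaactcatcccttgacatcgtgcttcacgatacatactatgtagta
Counted from 1 at the first base of each gene, the differences from the gene to its copy are T3C for mt-Nd3 and A1066T for mt-Co1. Which base the sequenced molecules carried cannot be read from counts per gene. Other nuclear copies were less alike, such as Gm13339 at 96.7% of 510 bases of mt-Nd2 and Gm11410 at 92.9% identity with mt-Cytb.

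The levels of the mRNAs along the chromosome followed this stretch. CPM per kilobase of gene, which corrects for gene length and here uses the plain library totals, had medians over the 57 libraries of 8517 for mt-Nd1, 3229 for mt-Nd2, 2109 for mt-Nd5, 2303 for mt-Nd6 and 5457 for mt-Cytb, the 5 mRNAs outside the copied stretch. The 6 mRNAs inside it had medians from 1.58 for mt-Nd4l to 11.1 for mt-Nd3, and no library of any of them exceeded 52.0. The lowest value of any mRNA outside the stretch was 351, so the levels did not overlap between these sets in any library. The genes that lie partly inside stood with those outside, at 10060 for mt-Co1, the catalytic subunit of cytochrome c oxidase, and 1641 for mt-Nd4, a complex I subunit. The order of the mRNAs outside or partly inside the stretch was mt-Co1, mt-Nd1, mt-Cytb, mt-Nd2, mt-Nd6, mt-Nd5 and mt-Nd4, from high to low, and the library ranges of every pair of neighbours in it overlapped. The rRNAs mt-Rnr1 and mt-Rnr2, which form the small and large mitochondrial ribosomal subunits, had medians of 399 and 486, below those mRNAs. Among the tRNAs, mt-Tp, which carries proline, had the most counts in all 57 libraries, 6 never exceeded 10 counts in any library and mt-Tk was at 0 in every library. The tRNAs mt-Tf, mt-Tv, mt-Ts1, mt-Td, mt-Tk, mt-Tr and mt-Tt were too low to enter any test, which left 30 genes tested in at least 1 comparison.

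All 37 genes together took between 1.45% and 11.1% of a library's counts. The share in IECs was 7.92%, 7.86% and 6.86% in the VilCre libraries and 9.44%, 11.1% and 5.06% in the DKO libraries, where replicate 3 stood apart from the other two and the groups overlapped. The 7-day organoid libraries had shares of 5.13%, 3.67% and 4.05% in VilCre, 3.93%, 4.45% and 4.56% in Cdk8KO, 6.30%, 6.54% and 5.79% in Cdk19KO, 6.42%, 6.57% and 6.49% in C57BL/6 and 6.23%, 5.96% and 6.11% in DKO organoids. VilCre and Cdk8KO organoids thus overlapped, and every library of the Cdk19KO, C57BL/6 and DKO lines lay above both. The same division held for the form of the column names and for library totals. Totals were 20424462 to 21449826 counts in VilCre and Cdk8KO and 15485959 to 18440256 counts in the others. Whatever goes with this division cannot be told apart from line or genotype. In the time course the EtOH libraries had shares of 3.92%, 5.39% and 4.95% on day 3, 2.80%, 2.51% and 2.59% on day 5, 3.58%, 3.43% and 3.09% on day 7 and 1.496%, 1.601% and 1.496% on day 10. The 4-OHT libraries had 5.56%, 5.56% and 5.21%, 5.57%, 4.82% and 4.59%, 3.70%, 3.47% and 2.82% and 1.63%, 1.75% and 1.96% on the same days. The arms overlapped on days 3 and 7, and every 4-OHT library was above every EtOH library on days 5 and 10, by the wider margin on day 5. In Wnt3-conditioned media the shares were 1.45%, 1.54% and 1.56% with EtOH and 1.61%, 2.17% and 2.43% with 4-OHT, and in D173A organoids 3.81%, 4.10% and 3.98% with EtOH and 3.66%, 3.70% and 3.90% with 4-OHT, so the arms differed without overlap in the first and overlapped in the second. Adding the 7 paired pseudogenes changed no group mean by more than its SD. In bulk samples, fewer cells of a type and less RNA per cell cannot be told apart.

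**Figure D1:**
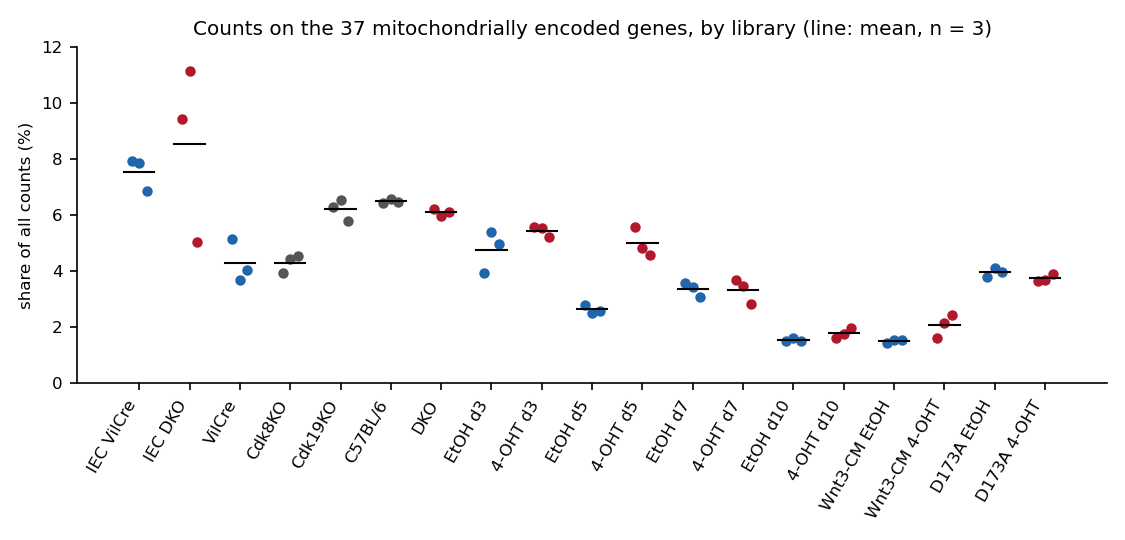
Share of each library's counts (percent, from 0) in the 37 mitochondrial genes, by group. Points are libraries and short lines are group means (n = 3), with VilCre and EtOH groups in blue, DKO and 4-OHT groups in red and the others in grey. EtOH organoids on day 5 lie between 2.51% and 2.80% and 4-OHT organoids between 4.59% and 5.57%.

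The time course asks how transcripts respond after 4-OHT, and its clearest difference among the mitochondrial genes was on day 5. Of 27 genes tested, 12 were higher with 4-OHT and 0 lower, at an adjusted p under 0.05 and a change over 1.5-fold in edgeR's quasi-likelihood test with Benjamini-Hochberg adjustment over all 15447 genes tested. Among all genes, 8.58% were called higher and 4.62% lower. The 12 were 12 of the 13 mRNAs, whereas 0 of 12 tRNAs and 0 of 2 rRNAs were called. The median log2 fold change was 2.51 over the 6 mRNAs inside the copied stretch and 0.98 over the 7 not wholly inside it, against 0.0012 over all genes. The same 12 were the genes whose libraries did not overlap between the arms in the higher direction, against 22.8% of all genes, and 0 did so in the lower direction, against 23.0%.

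Among the complex IV genes, mt-Co1 was at 7973, 7471 and 7213 CPM in the EtOH libraries and 18120, 16247 and 13850 CPM in the 4-OHT libraries (log2 fold change 1.09, SE 0.12, adjusted p = 1.6e-07). mt-Co2, which receives electrons from cytochrome c, was at 6.12, 3.95 and 4.81 CPM against 32.1, 26.6 and 22.9 CPM (log2 fold change 2.46, SE 0.16, adjusted p = 1.0e-12). mt-Co3 was at 5.85, 4.05 and 4.46 CPM against 21.1, 23.4 and 19.8 CPM (log2 fold change 2.17, SE 0.14, adjusted p = 1.3e-12). All 3 had every 4-OHT library above every EtOH library, and the difference was larger for the genes inside the copied stretch, whose counts were lower by orders of magnitude. The ATP synthase subunits, which are encoded by overlapping frames inside the stretch, behaved alike. mt-Atp6, part of the proton channel, was at 4.71, 4.10 and 4.76 CPM against 35.7, 32.4 and 28.7 CPM (log2 fold change 2.83, SE 0.15, adjusted p = 1.4e-14). mt-Atp8 was at 1.25, 0.810 and 1.23 CPM against 7.64, 5.57 and 6.28 CPM (log2 fold change 2.56, SE 0.23, adjusted p = 1.2e-09). These genes share 43 bases, so reads there cannot be told apart, and neither overlapped between the arms.

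Complex III has 1 mitochondrial subunit, cytochrome b, and its gene mt-Cytb was at 4381, 3632 and 3403 CPM with EtOH and 9100, 7006 and 6971 CPM with 4-OHT (log2 fold change 1.02, SE 0.15, adjusted p = 2.7e-05). The 7 complex I genes differed in the size of the change. mt-Nd1, which lies near the start of the order, was at 7131, 6541 and 6701 CPM against 10890, 9813 and 10304 CPM (log2 fold change 0.61, SE 0.09, adjusted p = 4.7e-06), the smallest change called. It missed the fold threshold in 3 of 6 fits that left out 1 library: EtOH day 5 replicate 2 (log2 fold change 0.57, adjusted p = 6.8e-05), EtOH day 5 replicate 3 (log2 fold change 0.58, adjusted p = 6.1e-05) and 4-OHT day 5 replicate 1 (log2 fold change 0.55, adjusted p = 1.0e-04). mt-Nd4l, the shortest complex I gene, was at 0.433, 0.456 and 0.343 CPM against 4.11, 2.99 and 3.22 CPM (log2 fold change 3.05, SE 0.35, adjusted p = 1.1e-07), from counts of 8, 9 and 7 against 77, 57 and 61. Both are membrane subunits, and their groups did not overlap, but mt-Nd4l rests on few reads. The remaining called complex I genes lay between these in size. mt-Nd2 was at 3153, 2726 and 2756 CPM against 5250, 4257 and 4727 CPM (log2 fold change 0.72, SE 0.11, adjusted p = 1.7e-05), and mt-Nd4 at 1353, 1250 and 1193 CPM against 3041, 2528 and 2354 CPM (log2 fold change 1.06, SE 0.12, adjusted p = 8.1e-07). mt-Nd5 was at 2926, 2718 and 2631 CPM against 5775, 4923 and 4681 CPM (log2 fold change 0.89, SE 0.11, adjusted p = 9.1e-07), and mt-Nd6 at 1418, 1212 and 1202 CPM against 2898, 2246 and 2421 CPM (log2 fold change 0.98, SE 0.20, adjusted p = 9.1e-04). All 4 had every 4-OHT library above every EtOH library. mt-Nd3 alone among the mRNAs was not, at 5.69, 4.56 and 3.68 CPM against 5.82, 5.88 and 5.12 CPM (log2 fold change 0.28, SE 0.17, adjusted p = 0.200). mt-Nd6 is encoded on the strand opposite to the other mRNAs, and the strand setting of the counting is not given in the sources used here, so its reads and those of its antisense transcript cannot be told apart, and the same holds for the tRNAs on that strand.

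The rRNAs were not called on day 5. mt-Rnr1 was at 363, 309 and 368 CPM with EtOH and 377, 362 and 349 CPM with 4-OHT (log2 fold change 0.07, SE 0.10, adjusted p = 0.632). mt-Rnr2 was at 666, 623 and 683 against 672, 658 and 623 CPM (log2 fold change -0.01, SE 0.08, adjusted p = 0.918). Of the 12 tRNAs tested, mt-Tl2 had 0, 1 and 0 counts with EtOH and 0, 0 and 2 with 4-OHT, too few for a fold. The others ran from -0.74 for mt-Tw to 0.30 for mt-Te on the log2 scale, and mt-Tp, the tRNA with the most counts on that day, was at 27.1, 24.4 and 21.9 against 28.3, 23.2 and 25.8 CPM. All 3 covered like values in both arms. Of the 22 tRNAs, 10 were too low to be tested in the time course.

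The paired pseudogenes moved with the genes on day 5. Their log2 fold changes were 2.58 for Gm28661, the copy of mt-Co2, 2.65 for Gm10925, the copy of mt-Atp6, 2.51 for Gm28437, the copy of mt-Co3, 3.11 for Gm10222, the copy of mt-Nd4l, and 2.75 for Gm28439, the copy of mt-Nd4. The change of mt-Nd4 was smaller than that of its copy Gm28439. Gm29216 stood at 2.53 while its partner mt-Co1 stood at 1.09, and Gm28438 at 1.17 while mt-Nd3 stood at 0.28. All 7 pseudogenes passed the test. With the copies added to their genes before the fit, the number of genes called higher on day 5 was 12.

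Nuclear-retained RNAs were also higher on day 5. Malat1 and Neat1, long RNAs that stay in the nucleus, had log2 fold changes of 1.59 (adjusted p = 2.9e-05) and 1.42 (adjusted p = 4.2e-04) on day 5, and their sum was 205 to 329.9 CPM in the EtOH libraries and 703 to 749 CPM in the 4-OHT libraries. Paneth cell markers summed to 3932 to 5032 CPM with EtOH and 2170 to 2486 CPM with 4-OHT, stem cell markers to 1462 to 2087 and 918 to 1041 CPM, proliferation markers to 572 to 704 and 342 to 444 CPM, and enterocyte markers to 5968 to 8689 and 5663 to 5895 CPM. Immune markers were at 2.13 to 3.09 CPM and 3.20 to 4.36 CPM. The part of these in the change of the mitochondrial genes was not tested.

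The levels with EtOH themselves changed between days, and the EtOH libraries of day 5 lay below those of day 3. From day 3 to day 5 in EtOH, 13 of 27 genes were lower and 0 higher, against 9.14% of all genes called lower and 2.82% higher. The 13 included 11 of the 13 mRNAs, mt-Rnr1 and mt-Tl2, and the mRNAs not called were mt-Nd1 (log2 fold change -0.28) and mt-Nd2 (-0.54). mt-Co2 went from 27.0, 27.7 and 28.0 CPM on day 3 to 6.12, 3.95 and 4.81 CPM on day 5 (log2 fold change -2.48, SE 0.16, adjusted p = 2.3e-12). mt-Cytb went from 6002, 9084 and 8081 CPM to 4381, 3632 and 3403 CPM (log2 fold change -1.02, SE 0.15, adjusted p = 3.2e-05). In the 4-OHT arm mt-Co2 was at 31.2, 30.2 and 27.2 CPM on day 3 and 32.1, 26.6 and 22.9 CPM on day 5, so the 4-OHT libraries of both days and the EtOH libraries of day 3 covered like values, and the EtOH libraries of day 5 lay below them. In CPM of the plain library totals, the mRNAs inside the copied stretch summed to 96.7 to 102 CPM with EtOH and 90.3 to 99.7 CPM with 4-OHT on day 3, 17.0 to 22.9 and 85.2 to 106 CPM on day 5, 16.4 to 21.2 and 19.0 to 25.9 CPM on day 7, and 4.89 to 6.80 and 5.27 to 6.42 CPM on day 10. The EtOH libraries of day 5 thus covered like values to both arms of day 7, and all libraries of day 10 lay below them. The calls of mt-Rnr1 and mt-Tl2 each failed in 3 of 6 fits that left out 1 library. For mt-Rnr1 the libraries were EtOH day 3 replicate 2 (log2 fold change -0.53, adjusted p = 9.2e-04), EtOH day 3 replicate 3 (log2 fold change -0.58, adjusted p = 5.2e-04) and EtOH day 5 replicate 2 (log2 fold change -0.52, adjusted p = 9.8e-04), and for mt-Tl2 they were EtOH day 3 replicate 1 (adjusted p = 0.0696), EtOH day 5 replicate 1 (adjusted p = 0.0648) and EtOH day 5 replicate 3 (adjusted p = 0.0770). mt-Tl2 had 5, 3 and 3 counts on day 3 and 0, 1 and 0 on day 5, too few for a fold. Malat1 and Neat1 fell by 1.36 and 1.24 on the log2 scale over the same interval. Enterocyte markers summed to 4608 to 5024 and 5968 to 8689 CPM on days 3 and 5, without overlap and with 4 of 6 called higher, and immune markers to 4.05 to 5.05 and 2.13 to 3.09 CPM. The part of these in the result was not tested. The EtOH day 5 libraries enter this comparison and the day 5 comparison of arms, so the 2 results are not independent.

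From day 5 to day 7 in EtOH, 0 of 27 genes were called by edgeR, against 0.285% of all genes called higher and 0.285% called lower, with 10 at an unadjusted p under 0.05 and 0 called by DESeq2. From day 7 to day 10, 17 genes were lower and 3 higher, against 13.9% and 9.39% of all genes. Column names of days 7 and 10 differ in form from each other and from those of day 5. Day and any separate handling thus cannot be told apart. mt-Nd1 went from 10147, 9463 and 8285 CPM to 2510, 2461 and 2184 CPM (log2 fold change -1.96, SE 0.09, adjusted p = 4.3e-16). mt-Nd6 went from 1593, 934 and 1322 to 179, 313 and 262 CPM (log2 fold change -2.35, SE 0.21, adjusted p = 3.9e-08). mt-Co1 was among those not called, from 9750, 10278 and 8552 to 6676, 6924 and 7111 CPM (log2 fold change -0.46), and so was mt-Nd3 (0.20). Of the 13 mRNAs, 11 were thus lower on day 10. Inside the copied stretch, mt-Atp6 went from 4.49, 5.99 and 4.42 to 0.194, 0.253 and 0.304 CPM and mt-Co2 from 5.75, 4.11 and 3.96 to 0.194, 0.354 and 0.254 CPM, so no library of day 10 reached those of day 7. mt-Atp8 and mt-Nd4l had 0, 0 and 1 and 0, 1 and 1 counts on day 10, too few for a fold, after 23, 32 and 14 and 13, 11 and 8 on day 7. The genes that were higher on day 10 were a run of neighbours just after mt-Nd4, the tRNAs for histidine, serine and leucine: mt-Th at 0.151, 0.198 and 0.0508 against 1.31, 1.42 and 0.913 CPM (adjusted p = 1.5e-05), mt-Ts2 with log2 fold change 1.70 and mt-Tl2 with 2.17. The call of mt-Tc, a tRNA lower on day 10, was lost without EtOH day 7 replicate 3 (log2 fold change -0.54, adjusted p = 0.0925). The 3 that were higher had at most 28 counts in a day 10 library. From day 7 to day 10, Paneth cell markers summed to 4096 to 5023 and 7045 to 7329 CPM, stem cell markers to 1756 to 2123 and 2953 to 3190 CPM, and Malat1 with Neat1 to 329.8 to 744 and 167 to 209 CPM. Mesenchymal markers were at 42.2 CPM in 1 EtOH day 7 library and at 1.36 CPM in the lowest. The part of these in this comparison was not tested.

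**Figure D2:**
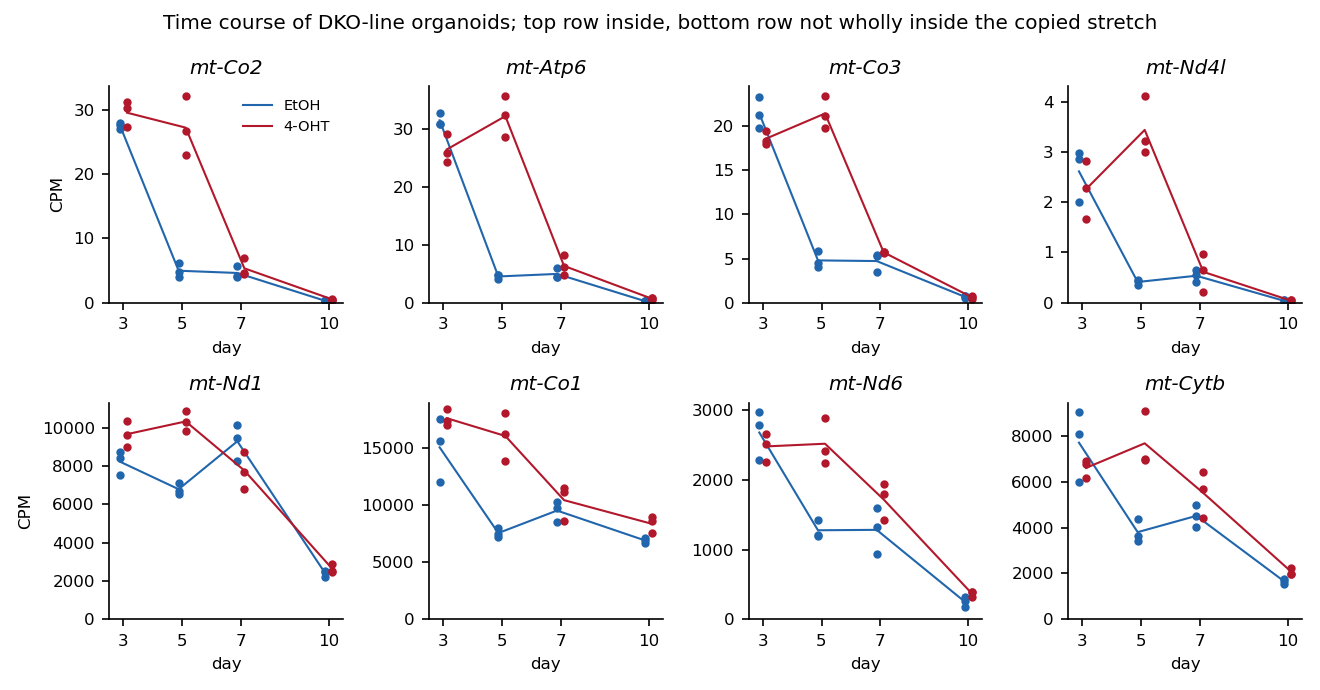
CPM (linear axes from 0) of 4 mRNAs inside the copied stretch (top) and 4 not wholly inside it (bottom) on days 3, 5, 7 and 10 with EtOH (blue) or 4-OHT (red). Points are libraries (n = 3) and lines join group means. For mt-Co2 the EtOH libraries lie at 6.12, 3.95 and 4.81 CPM on day 5 and the 4-OHT libraries at 32.1, 26.6 and 22.9 CPM.

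Outside day 5, few mitochondrial genes passed both thresholds between the arms. On day 3, 1 of 27 was called, against 6.42% of all genes called higher and 5.95% called lower: mt-Rnr2, at 634, 750.0 and 739 CPM with EtOH and 1261, 1458 and 1193 CPM with 4-OHT (log2 fold change 0.88, SE 0.08, adjusted p = 1.0e-09), with no overlap. The other rRNA, mt-Rnr1, was higher by less than 1.5-fold (log2 fold change 0.55, adjusted p = 9.1e-05). On day 7, 3 of 27 were lower and 0 higher, against 9.25% and 9.00% of all genes. mt-Rnr1 was at 446, 416 and 385 CPM with EtOH and 269, 282 and 258 CPM with 4-OHT (log2 fold change -0.63, SE 0.10, adjusted p = 1.3e-05), and without 1 library it missed the threshold: EtOH day 7 replicate 1 (log2 fold change -0.58, adjusted p = 1.5e-04). The others were the asparagine and cysteine tRNAs. mt-Tn was at 1.41, 1.04 and 1.83 against 0.647, 0.669 and 0.477 CPM (log2 fold change -1.24, SE 0.40, adjusted p = 0.0118), with its call lost without EtOH day 7 replicate 3 (log2 fold change -1.03, adjusted p = 0.0683). mt-Tc was at 2.07, 1.48 and 2.39 against 1.67, 1.34 and 0.848 CPM (log2 fold change -0.62, SE 0.24, adjusted p = 0.0370), with its call lost without EtOH day 7 replicate 1 (log2 fold change -0.60, adjusted p = 0.0784), EtOH day 7 replicate 3 (log2 fold change -0.46, adjusted p = 0.180), 4-OHT day 7 replicate 2 (log2 fold change -0.66, adjusted p = 0.0584) and 4-OHT day 7 replicate 3 (log2 fold change -0.41, adjusted p = 0.199). These tRNAs lie side by side, and the arms of mt-Tn did not overlap while those of mt-Tc did. On day 10, 1 of 27 was called, against 8.86% of all genes called higher and 6.92% called lower: mt-Atp6, at 0.194, 0.253 and 0.304 CPM with EtOH and 0.373, 0.738 and 0.877 CPM with 4-OHT (log2 fold change 1.39, SE 0.45, adjusted p = 0.0129). Its call was lost without EtOH day 10 replicate 1 (log2 fold change 1.23, adjusted p = 0.0546) and 4-OHT day 10 replicate 3 (log2 fold change 1.14, adjusted p = 0.0818). It rests on 4, 5 and 6 counts with EtOH and 7, 14 and 17 with 4-OHT. Counting genes whose libraries did not overlap between the arms, 4 were higher and 5 lower with 4-OHT on day 3, against 23.8% and 27.4% of all genes, and 5 of 27 had an adjusted p under 0.05. On day 7 they were 2 and 5, against 25.2% and 24.4%, with 6 at an adjusted p under 0.05. On day 10 they were 11 and 1, against 27.9% and 25.3%, and besides mt-Atp6 an adjusted p under 0.05 was reached with less than 1.5-fold by mt-Nd2 (log2 fold change 0.43), mt-Nd4 (0.39), mt-Nd6 (0.56) and mt-Tp (0.40). Cell type markers moved with these comparisons as well. On day 3, enterocyte markers summed to 4608 to 5024 and 1721 to 2047 CPM with EtOH and 4-OHT (5 of 6 called lower) and immune markers to 4.05 to 5.05 and 11.3 to 14.4 CPM. On day 7, Paneth cell markers summed to 4096 to 5023 and 1548 to 1742 CPM, stem cell markers to 1756 to 2123 and 621 to 959 CPM and proliferation markers to 609 to 737 and 286 to 436 CPM, with 5 of 5, 3 of 4 and 4 of 4 called lower. Mesenchymal markers stood apart in EtOH day 7 replicate 2, at 42.2 CPM, and Col1a1 was called lower with 4-OHT. Without that library mt-Rnr1, mt-Tn and mt-Tc were still called lower, with log2 fold changes of -0.64, -1.44 and -0.80. On day 10 they summed to 7045 to 7329 and 1931 to 2318 CPM, 2953 to 3190 and 1529 to 1744 CPM and 748 to 827 and 378 to 416 CPM, with 5 of 5, 3 of 4 and 3 of 4 called lower, and 3 of 6 enterocyte markers were called higher. Malat1 with Neat1 summed to 167 to 209 and 262 to 299 CPM on day 10, without overlap, and Malat1 was called higher. Their part in the results was not tested.

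The difference between days was tested as an interaction. From day 3 to day 5 the log2 fold change of 4-OHT against EtOH was called higher for 12 genes, all mRNAs, and lower for 1, mt-Rnr2, against 11.2% of all genes called higher and 9.01% called lower. mt-Nd1 was the mRNA not called (log2 difference 0.37, adjusted p = 0.0195). For 1 of the 12, mt-Nd3, the change was from -0.47 on day 3 (adjusted p = 0.0185) to 0.28 on day 5, and its call was lost without EtOH day 5 replicate 3 (log2 fold change 0.58, adjusted p = 0.0541). From day 5 to day 7 the log2 fold change was called lower for 12 genes, 11 mRNAs and mt-Rnr1, against 3.80% of all genes called higher and 5.01% called lower. For mt-Rnr1 it went from 0.07 to -0.63. Calls lost were mt-Nd5 without 4-OHT day 5 replicate 1 (log2 fold change -0.55, adjusted p = 0.0159), EtOH day 7 replicate 1 (log2 fold change -0.58, adjusted p = 0.0166) and 4-OHT day 7 replicate 3 (log2 fold change -0.52, adjusted p = 0.00926) and mt-Cytb without 4-OHT day 5 replicate 1 (log2 fold change -0.59, adjusted p = 0.0528) and EtOH day 7 replicate 1 (log2 fold change -0.65, adjusted p = 0.0519). From day 7 to day 10 it was called higher for mt-Rnr1, mt-Rnr2 and mt-Tn, against 2.98% of all genes called higher and 3.42% called lower. All 3 were below 0 on day 7, and on day 10 their log2 fold changes were 0.24, 0.19 and 0.30, none of them called. The mt-Tn call was lost in 11 of 12 fits that left out 1 library, kept only without EtOH day 7 replicate 2 (adjusted p = 0.0306). All these contrasts use the same EtOH and 4-OHT libraries of the days they share.

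Nuclear genes for mitochondrial RNA were compared from 2 lists, 22 genes of mitochondrial DNA transcription and replication and 24 of mitochondrial RNA processing and stability. Of the first list, 22 were tested on day 5, with 0 higher and 4 lower, against 8.58% and 4.62% of all genes: Top1mt, the mitochondrial topoisomerase (log2 fold change -0.86), Tfb1m, which methylates mitochondrial rRNA (-0.60), the elongation factor Tefm (-0.64) and the coactivator Pprc1 (-0.60). Tfam, which packages mitochondrial DNA and starts its transcription, had -0.38 (adjusted p = 1.4e-04) and the polymerase Polrmt had -0.07 (adjusted p = 0.470). Of the second list, 22 were tested and 0 called by edgeR, while 15 had an unadjusted p under 0.05. The median log2 fold changes of the lists were -0.19 and -0.22, against 0.0012 over all genes. The lists' summed levels were 825 to 827 and 1160 to 1237 CPM with EtOH and 692 to 732 and 1005 to 1066 CPM with 4-OHT. From day 7 to day 10 in EtOH, Tfam (0.84), Esrra (0.62) and Tefm (0.76) were higher, and Ppargc1a, a coactivator of mitochondrial biogenesis (-1.27), and Pprc1 (-0.79) were lower. Slirp (1.71) and Lrpprc (0.65), which together stabilise mitochondrial mRNAs, were higher, as were Fastkd2 (0.62) and Fastkd5 (0.60), with Fastk lower (-0.74). These are 3 higher and 2 lower of 22 in the first list and 4 and 1 of 22 in the second, against 9.39% and 13.9% of all genes. Between the arms on the other days, the first list had 0 higher and 2 lower on day 3, 2 higher and 3 lower on day 7 and 2 higher and 2 lower on day 10. The second had 0 higher on these days and 0, 2 and 1 lower. These counts are read against 6.42% higher and 5.95% lower of all genes on day 3, 9.00% and 9.25% on day 7 and 8.86% and 6.92% on day 10. Among the 7-day lines, the first list had 2 genes higher and 1 lower in DKO against VilCre organoids, against 11.5% and 7.95% of all genes, and 3 higher and 0 lower in C57BL/6 against VilCre organoids, against 15.5% and 10.9%. The second had 0 called in both.

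The 7-day organoid lines were compared to separate the single knockouts and the DKO from their controls. In DKO against VilCre organoids, 20 of 30 genes were higher and 0 lower, against 11.5% and 7.95% of all genes. The unaltered C57BL/6 line compared with the same VilCre libraries had 21 higher and 3 lower, against 15.5% and 10.9% of all genes. Both comparisons share the VilCre libraries, and each rests on 1 line against another. Each also crosses the division in column names and library totals given above. mt-Co1 was at 19145, 13910 and 15059 CPM in VilCre, 26517, 25700 and 25054 CPM in DKO and 28748, 29464 and 27855 CPM in C57BL/6 organoids, with log2 fold changes of 0.68 and 0.84, both called, and the VilCre libraries lay below all the others. mt-Rnr2 was at 953, 761 and 825 CPM in VilCre, 2434, 2187 and 2302 CPM in DKO and 1976, 1938 and 1933 CPM in C57BL/6 organoids (log2 fold change 1.45, SE 0.07, adjusted p = 1.1e-14, and log2 fold change 1.20, SE 0.07, adjusted p = 2.4e-13). mt-Nd1 was at 10291, 7809 and 8467 CPM in VilCre, 9834, 9051 and 9285 CPM in DKO and 8010, 9020 and 9330 CPM in C57BL/6 organoids and was called in neither (log2 fold changes 0.08 and -0.01). Among the mRNAs, mt-Nd1, mt-Nd2 and mt-Nd5 were called in neither comparison, and mt-Co1, mt-Nd4 and 4 of the 6 inside the copied stretch were called higher in both. mt-Nd4 was at 2658, 1891 and 2150 CPM in VilCre, 4045, 3758 and 3776 CPM in DKO and 3935, 3899 and 4288 CPM in C57BL/6 organoids.

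The neighbouring tRNAs mt-Th, mt-Ts2 and mt-Tl2 were again called higher in both comparisons. mt-Th was at 0.522, 0.192 and 0.250 CPM in VilCre, 1.38, 1.41 and 1.94 CPM in DKO and 1.65, 0.966 and 2.04 CPM in C57BL/6 organoids (log2 fold change 2.26, SE 0.36, adjusted p = 7.5e-06, and log2 fold change 2.24, SE 0.36, adjusted p = 7.1e-06). mt-Ts2 had 5, 3 and 0 counts in VilCre, 18, 17 and 30 in DKO and 25, 18 and 29 in C57BL/6 organoids, and mt-Tl2 had 5, 0 and 0, 20, 7 and 15 and 13, 17 and 30, with too few in VilCre for a fold. mt-Tp was at 34.0, 28.6 and 24.8 CPM in VilCre, 72.0, 60.5 and 62.5 CPM in DKO and 60.5, 65.2 and 69.7 CPM in C57BL/6 organoids, so all libraries of the 2 lines exceeded those of VilCre. Some calls were lost when 1 library was left out. In DKO these were mt-Atp6 without DKO replicate 3 (log2 fold change 0.58, adjusted p = 0.00380) and mt-Tg without VilCre replicate 2 (log2 fold change 0.68, adjusted p = 0.195), VilCre replicate 3 (log2 fold change 0.93, adjusted p = 0.119), DKO replicate 1 (log2 fold change 1.05, adjusted p = 0.0796) and DKO replicate 2 (log2 fold change 0.59, adjusted p = 0.309). In C57BL/6 they were mt-Cytb without VilCre replicate 2 (log2 fold change 0.55, adjusted p = 9.2e-06), mt-Tl1 without VilCre replicate 2 (log2 fold change 0.60, adjusted p = 0.0519) and C57BL/6 replicate 2 (log2 fold change 0.60, adjusted p = 0.0635), mt-Ti without VilCre replicate 2 (log2 fold change 0.71, adjusted p = 0.0951) and C57BL/6 replicate 3 (log2 fold change 0.85, adjusted p = 0.114) and mt-Nd4l without VilCre replicate 2 (log2 fold change 0.97, adjusted p = 0.0767), VilCre replicate 3 (log2 fold change 0.63, adjusted p = 0.182), C57BL/6 replicate 1 (log2 fold change 0.66, adjusted p = 0.210) and C57BL/6 replicate 2 (log2 fold change 0.91, adjusted p = 0.0996). Malat1 and Neat1 summed to 301 to 333 CPM in VilCre, 675 to 719 CPM in DKO and 651 to 759 CPM in C57BL/6 organoids, and Paneth markers to 1668 to 1740, 557 to 595 and 3693 to 4680 CPM. Stem cell markers summed to 1084 to 1302, 389 to 543 and 1167 to 1230 CPM, with 3 of 4 called lower in DKO and 2 of 4 higher in C57BL/6, and 2 of 6 enterocyte markers were called higher in DKO and 2 of 6 lower in C57BL/6. Their part in the results was not tested.

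Few genes were called between the single knockouts and their controls. In Cdk8KO against VilCre organoids, 3 of 30 genes were lower and 0 higher, against 2.90% of all genes called higher and 4.34% called lower. The 3 were mt-Nd3, mt-Tg and the tyrosine tRNA mt-Ty. The direction of mt-Nd3 turned once the counts of its nuclear copy were added, as given below. mt-Ty was at 3.51, 1.97 and 1.75 CPM in VilCre and 1.18, 1.10 and 1.16 CPM in Cdk8KO organoids (log2 fold change -1.07, SE 0.27, adjusted p = 0.00315), a call lost without VilCre replicate 1 (log2 fold change -0.70, adjusted p = 0.0606). mt-Co1, at 19145, 13910 and 15059 against 14902, 16661 and 18152 CPM, and mt-Cytb, at 6551, 4681 and 5198 against 5197, 5833 and 6126 CPM, overlapped. In Cdk19KO against C57BL/6 organoids, edgeR called 0 of 30 genes, against 2.86% of all genes called higher and 2.39% called lower, with 4 at an unadjusted p under 0.05 and 0 called by DESeq2. The log2 fold changes ran from -0.45 for mt-Atp6 to 0.69 for mt-Ty. Neither of these lines has a Cre allele listed. Of the cell type markers, 3 of 6 for enterocytes were called lower in Cdk8KO organoids, and 2 of 4 for stem cells were called lower in Cdk19KO organoids. Their part in the results was not tested.

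mt-Nd3 (ENSMUSG00000064360), a small complex I subunit, and mt-Tg (ENSMUSG00000064359), the glycine tRNA that ends 1 base before it, differed between lines. The counts of mt-Nd3 were 82, 52 and 54 in VilCre organoids against 7, 3 and 6 for its copy Gm28438, so mt-Nd3 took 92.1%, 94.5% and 90.0% of their sum. In Cdk8KO organoids the counts were 13, 10 and 18 against 95, 92 and 80, which makes 12.04%, 9.804% and 18.37%. C57BL/6 organoids had 23, 30 and 29 against 402, 431 and 545 counts. The split of the pair thus turned over between lines. The gene's share was 3.48%, 3.40% and 7.29% in Cdk19KO organoids, 5.41%, 6.51% and 5.05% in C57BL/6 organoids and 66.3%, 64.6% and 61.3% in DKO organoids. The line of the time course and Wnt3-conditioned media had shares from 54.4% to 92.1% over its 30 libraries, and the D173A line from 0.415% to 2.61% over its 6. With 4-OHT or EtOH, each line kept to its side of 50%.

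In these same groups mt-Tg was present or listed at 0. The 6 groups in which mt-Nd3 held 0.415% to 18.4% of its pair were DKO IECs, Cdk8KO, Cdk19KO and C57BL/6 organoids and both D173A groups, and mt-Tg had 0 counts in all 18 of their libraries. In the 39 libraries of the other 13 groups, in which mt-Nd3 held 54.4% to 99.1%, mt-Tg had 3 to 29 counts. The groups are described here after their values were seen and no test was made of this split. Against VilCre organoids, mt-Tg was at least 3.98-fold lower in Cdk8KO and at least 3.07-fold lower in C57BL/6 organoids, with the floor at 3 counts per library. The T3C difference of the pair lies 3 bases past the end of mt-Tg on chrM.

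The fits of mt-Nd3 followed the split in Cdk8KO and C57BL/6 organoids. They did not in DKO organoids, where the gene's share was below that of VilCre organoids and its fit was higher. Against VilCre organoids, mt-Nd3 had log2 fold change -2.26, SE 0.26, adjusted p = 2.9e-07 in Cdk8KO organoids, log2 fold change -0.90, SE 0.23, adjusted p = 0.00130 in C57BL/6 organoids and log2 fold change 2.01, SE 0.17, adjusted p = 2.2e-10 in DKO organoids, while Gm28438 had log2 fold changes of 3.95, 6.68 and 4.69 in them. With the counts of the copy added to the gene, the direction turned in Cdk8KO and C57BL/6 organoids, to log2 fold change 0.51, adjusted p = 0.0771 in Cdk8KO organoids and log2 fold change 3.13, adjusted p = 2.0e-11 in C57BL/6 organoids, and it stayed in DKO organoids (log2 fold change 2.53, adjusted p = 1.0e-09). The other 6 pairs had the same direction for gene and copy in C57BL/6 against VilCre organoids. The log2 fold changes were 1.35 for mt-Co2 and 1.49 for Gm28661, 1.22 for mt-Atp6 and 1.21 for Gm10925, 1.35 for mt-Co3 and 1.87 for Gm28437, and 0.98 for mt-Nd4l and 1.37 for Gm10222. For the genes partly inside the stretch they were 0.84 for mt-Co1 and 1.63 for Gm29216, and 0.86 for mt-Nd4 and 0.49 for Gm28439, the copy that was not called. No difference within a pair was tested.

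**Figure D3:**
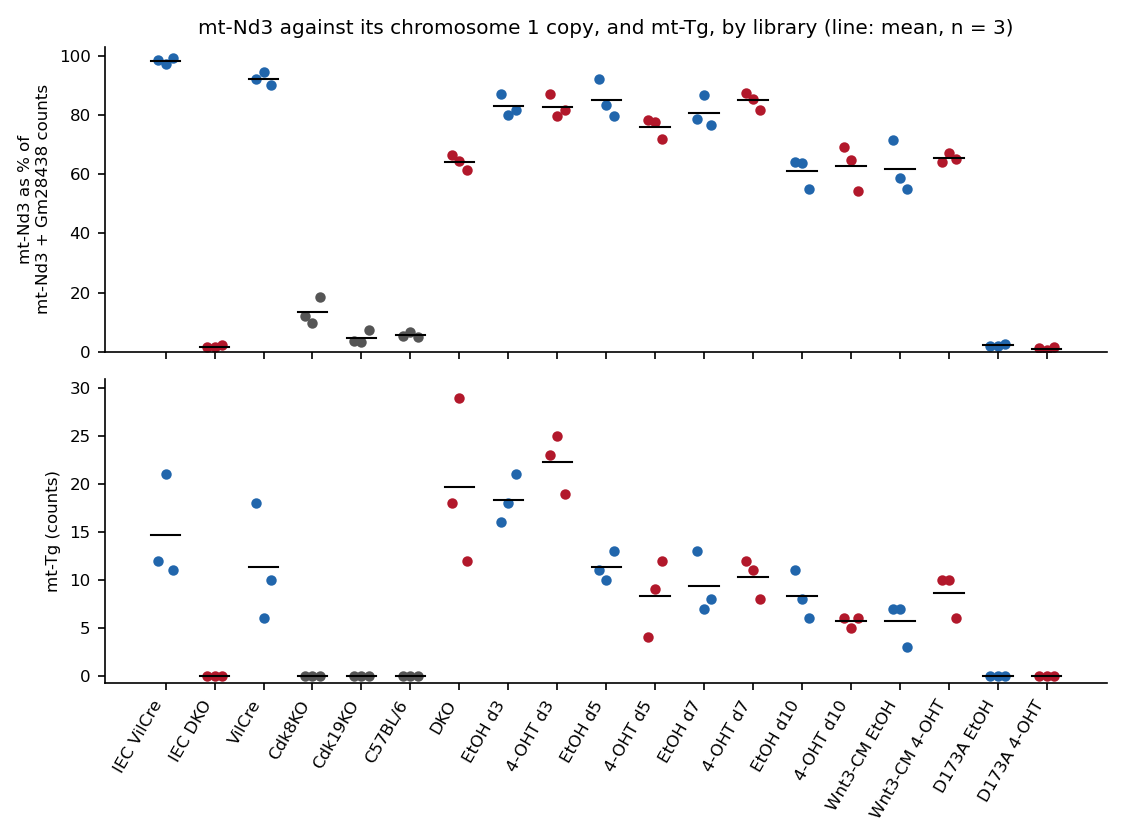
Share of mt-Nd3 in the counts of mt-Nd3 plus its nuclear copy Gm28438 (percent, upper panel) and counts of mt-Tg (lower panel) in every library, by group. Short lines are means (n = 3), with VilCre and EtOH groups in blue, DKO and 4-OHT groups in red and the others in grey. All 18 libraries with shares of 0.415% to 18.4% have 0 counts of mt-Tg, and the other 39 have 3 to 29.

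In IECs, taken from 3 mice a group, edgeR called 2 of 26 genes lower in DKO than in VilCre and 0 higher, against 0.646% of all genes called higher and 0.856% called lower, and DESeq2 called 2 lower and 3 higher. The 2 lower genes were mt-Nd3 and mt-Tg. The count over all genes rested on single libraries. It was 98 of 15182 genes higher with all libraries, 1322 of 15667 without VilCre replicate 2, and 2 and 1 without VilCre replicates 1 and 3. VilCre replicate 2 stood apart in mesenchymal markers, such as Col1a1 at 0.713, 196 and 7.54 CPM in the 3 VilCre libraries, and in immune markers, such as Igkc at 10.1, 117 and 12.1 CPM. Without it, 3 mitochondrial genes were called lower and 0 higher. The mt-Nd3 counts were 131, 262 and 114 in VilCre and 4, 5 and 4 in DKO IECs, those of Gm28438 2, 7 and 1 in VilCre and 276, 345 and 179 in DKO IECs. The mt-Tg counts were 12, 21 and 11 in VilCre and 0 in all 3 DKO IEC libraries. Counts of the pair thus fell mostly on the copy in DKO libraries and mostly on the gene in VilCre libraries. Which of these places the sequenced molecules came from cannot be read from such counts. The next genes along the chromosome, the arginine tRNA mt-Tr and mt-Nd4l, were too low to be tested in IECs. mt-Tr had 15, 17 and 10 counts in VilCre and 1, 0 and 0 in DKO IECs. mt-Nd4l had 19, 18 and 9 counts against 4, 7 and 2 for its copy Gm10222 in VilCre, and 7, 5 and 4 against 26, 18 and 13 in DKO IECs, so that its pair turned over as well. The fit of mt-Nd3 (log2 fold change -5.35, SE 0.44, adjusted p = 0.0106) turned with the copy added (log2 fold change 0.55, adjusted p = 0.475), and the summed levels of the pair were 7.21, 14.7 and 6.13 CPM in VilCre and 14.2, 17.6 and 9.25 CPM in DKO IECs, which overlapped. Without DKO replicate 3, the library whose mitochondrial share stood apart, mt-Nd3 was not called (log2 fold change -5.29, adjusted p = 0.0524). mt-Tg was at least 5.27-fold lower, and its call was lost in 4 of 6 such fits, those without VilCre replicate 1 (adjusted p = 0.171), VilCre replicate 3 (adjusted p = 0.178), DKO replicate 1 (adjusted p = 0.100) or DKO replicate 3 (adjusted p = 0.0986).

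The other mRNAs that were tested overlapped between the IEC groups. mt-Co1 was at 40663, 38512 and 33724 CPM in VilCre and 41465, 52146 and 24212 CPM in DKO IECs (log2 fold change 0.06, SE 0.28, adjusted p = 0.921). mt-Cytb was at 11167, 11282 and 9921 CPM in VilCre and 11150, 14806 and 6399 CPM in DKO IECs (adjusted p = 0.999). In both genes DKO replicate 3 was the lowest of the 6 libraries. The largest difference upward was that of mt-Tn, at 3.84, 6.69 and 4.76 against 22.2, 9.97 and 7.51 CPM (log2 fold change 1.37, SE 0.44, adjusted p = 0.173), and mt-Rnr1 was at 818, 1022 and 735 against 2590, 1624 and 1020 CPM (log2 fold change 1.02, SE 0.33, adjusted p = 0.177). Neither was called by edgeR. DESeq2 called both higher, with log2 fold change 1.37, adjusted p = 0.0292 for mt-Tn and log2 fold change 1.02, adjusted p = 0.0115 for mt-Rnr1, and also mt-Tc (log2 fold change 1.21, adjusted p = 0.0421). Immune markers, all 6 of which were detected in IECs, and mesenchymal markers, at 9.11 to 515 CPM in VilCre and 261 to 509 CPM in DKO IECs, are given beside these values. Paneth cell markers summed to 2793 to 4616 and 715 to 1693 CPM (3 of 5 called lower) and stem cell markers to 680.1 to 956 and 277 to 437 CPM (2 of 4 called lower). The part of these in the results was not tested.

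Wnt3-conditioned media and the kinase-dead allele gave few calls. In Wnt3-conditioned media on day 10, 2 of 22 genes were higher with 4-OHT and 0 lower, against 9.45% of all genes called higher and 7.42% called lower. mt-Ty was at 0.210, 0.472 and 0.369 CPM with EtOH and 0.844, 0.778 and 1.06 CPM with 4-OHT (log2 fold change 1.34, SE 0.39, adjusted p = 0.00681), and mt-Te, the glutamate tRNA, at 0.526, 0.472 and 0.263 and 0.646, 1.02 and 0.968 CPM (log2 fold change 1.05, SE 0.38, adjusted p = 0.0259). Neither overlapped between the arms, and the call of mt-Te was lost without EtOH library 3 (log2 fold change 0.81, adjusted p = 0.129), 4-OHT library 2 (log2 fold change 0.94, adjusted p = 0.0939) and 4-OHT library 3 (log2 fold change 0.99, adjusted p = 0.0734). Both tRNAs had at most 22 counts in a library. An adjusted p under 0.05, whatever the fold, was reached by 7 of 22 genes, among them 4 of 10 mRNAs. mt-Co1 was at 6934, 7806 and 7856 against 7892, 11084 and 11137 CPM (log2 fold change 0.41, SE 0.12, adjusted p = 0.00857), a change under the fold threshold without overlap, and the log2 fold changes of the 10 mRNAs tested ran from -0.05 for mt-Nd6 to 0.58 for mt-Nd4. Without 4-OHT library 1 the calls numbered 5, and without 4-OHT library 3 they numbered 1. In the libraries taken as D173A organoids, 1 of 26 genes was called, against 6.05% of all genes called higher and 6.25% called lower: mt-Ty, at 0.420, 0.564 and 0.675 CPM with EtOH and 1.76, 0.597 and 1.56 CPM with 4-OHT (log2 fold change 1.22, SE 0.41, adjusted p = 0.0491), with overlap. This call was lost without EtOH library 1 (log2 fold change 1.04, adjusted p = 0.134), EtOH library 2 (log2 fold change 1.21, adjusted p = 0.134), EtOH library 3 (log2 fold change 1.37, adjusted p = 0.0901), 4-OHT library 1 (log2 fold change 0.92, adjusted p = 0.146) and 4-OHT library 3 (log2 fold change 1.07, adjusted p = 0.131). mt-Co1 was at 15399, 16448 and 16369 and 14967, 16009 and 16393 CPM and mt-Cytb at 6688, 6854 and 6428 and 6062, 5954 and 6571 CPM, with log2 fold changes of -0.03 and -0.10. Cell type markers moved in both comparisons. In Wnt3-conditioned media, Paneth cell markers summed to 5736 to 6382 and 1621 to 1998 CPM with EtOH and 4-OHT (5 of 5 called lower) and enterocyte markers to 5225 to 6405 and 5907 to 6260 CPM (4 of 6 called higher). In D173A organoids, Paneth cell markers summed to 2224 to 2481 and 1308 to 1570 CPM (4 of 5 called lower and Lyz1 higher), stem cell markers to 739.5 to 839 and 402 to 452 CPM (3 of 4 called lower) and enterocyte markers to 12529 to 13529 and 17088 to 19477 CPM (4 of 6 called higher). Of Malat1 and Neat1, 1 of 2 was called lower there, as were 1 of 4 proliferation markers and the 1 mesenchymal marker tested. Their part in the results was not tested.

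**Figure D4:**
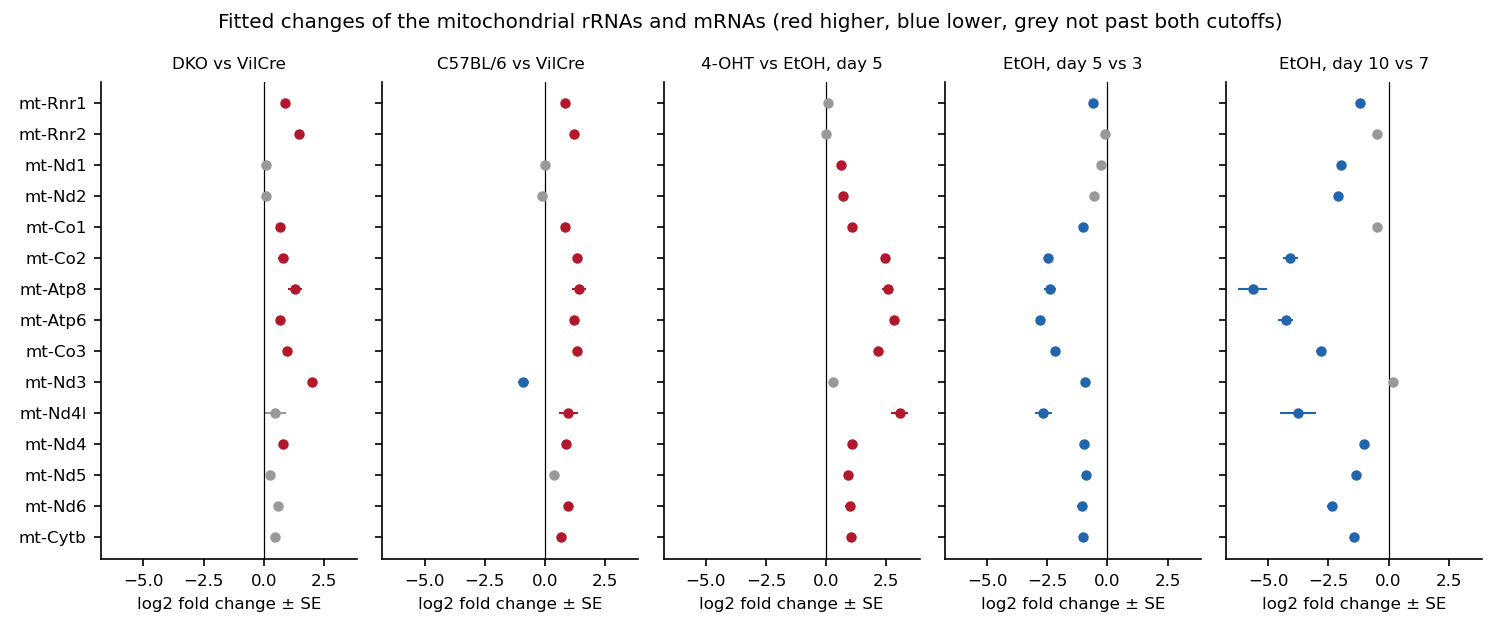
Log2 fold changes (points) with their SE (bars) of the mitochondrial rRNAs and mRNAs, in their order along the chromosome, in 5 comparisons. Red is called higher, blue called lower and grey not past both thresholds, and on EtOH day 10 mt-Atp8 and mt-Nd4l rest on 0 or 1 counts a library. On day 5 the called genes run from 0.61 for mt-Nd1 to 3.05 for mt-Nd4l.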

How the data were processed

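RNA-Seq counts per gene were deposited by the authors in 4 tables with 54752 genes. Per the submitters' processing notes, reads were aligned to mm10 with STAR 2.5.2 and counted with featureCounts of Subread 1.6.3. The strand and multi-mapping settings are not given in the sources used here. Their part in the levels inside the copied stretch was not tested.

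Samples were grouped by their labels. Of 63 labelled samples, 57 were used, and 6 columns were left out because their names could not be tied to a group. No 2 libraries were identical, and replicates differed by more than sampling noise (lowest chi-square per degree of freedom 2.41). Groups were compared in edgeR 4.0.16 (R 4.3.3) with filterByExpr, TMM scaling and the robust quasi-likelihood test, with 1 fit over all groups of each table (for the table with Wnt3-conditioned media and D173A organoids, 1 fit for each). Benjamini-Hochberg adjustment covered all genes tested. Calls needed an adjusted p under 0.05 and a change over 1.5-fold. SEs were the log2 fold change over the square root of F. Alternatives were DESeq2 1.42.0, other filters and scaling, nuclear copies added to their genes, a replicate block and each library left out. The block by column number for Wnt3-conditioned media and D173A organoids was added after the data were seen. Scripts were tested on simulated data. Copies were found by shared runs of 25 bases in GENCODE vM21, in which 53861 gene identifiers were present. The members and the gene lists were chosen with earlier results of these data known. Every mitochondrial gene is a member, with tRNAs named where they were called, and the groups split by mt-Nd3 and mt-Tg were described after their values were seen.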

Additional observations from a re-analysis of the deposited data

Results flagged for a closer look

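The effect of 4-OHT against EtOH differed between days of the time course for 28 results, each by a test of the difference itself, an interaction term in edgeR's quasi-likelihood fit (log2 scale, 3 libraries an arm and day). From day 3 to day 5 the log2 fold change of 4-OHT against EtOH was higher by 2.36 for mt-Co2, 2.89 for mt-Atp8, 3.09 for mt-Atp6, 2.37 for mt-Co3 and 3.26 for mt-Nd4l, all inside the copied stretch. It was also higher by 0.81 for mt-Nd2, 0.86 for mt-Co1, 1.26 for mt-Nd4, 0.94 for mt-Nd5, 1.09 for mt-Nd6 and 1.24 for mt-Cytb and, from below 0 on day 3, by 0.75 for mt-Nd3, while mt-Rnr2 had a difference of -0.90. The largest adjusted p among these was 0.0107.

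From day 5 to day 7 the differences were -2.25 for mt-Co2, -2.49 for mt-Atp8, -2.48 for mt-Atp6, -1.89 for mt-Co3 and -2.85 for mt-Nd4l inside the copied stretch and -0.69 for mt-Rnr1, -0.87 for mt-Nd1, -0.77 for mt-Nd2, -0.96 for mt-Co1, -0.89 for mt-Nd4, -0.64 for mt-Nd5 and -0.73 for mt-Cytb outside it or partly inside, with a largest adjusted p of 0.0196. From day 7 to day 10 they were 0.87 for mt-Rnr1, 0.74 for mt-Rnr2 and 1.54 for mt-Tn, with a largest adjusted p of 0.047. The mt-Tn call was lost in 11 of 12 fits that left out 1 library, that of mt-Nd3 (day 5 against 3) in 1 of 12, and those of mt-Nd5 and mt-Cytb (day 7 against 5) in 3 and 2 of 12. Neighbouring contrasts use the libraries of the day they share with opposite signs, so these differences are not independent of each other. Groups of 3 libraries were not tested for single libraries that stand apart.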

How the results depend on the processing

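Of 1921 values of single genes under the alternatives, 1839 kept their direction and side of the thresholds, 79 were no longer called and 3 reversed. The 3 were mt-Nd3 with its nuclear copy added, at log2 fold changes of 0.51 in Cdk8KO, 3.13 in C57BL/6 and 0.55 in DKO IECs against VilCre. Of 133 counts of called genes (library left-outs aside), 112 were within 1.5 times the reported count. With at least 10 counts asked for in every library the calls were 1 in Cdk8KO, 15 in C57BL/6, 0 in IECs, 7 on day 5, 0 on day 10, 8 for EtOH day 5 against 3, 10 for EtOH day 10 against 7, 8 and 7 for the differences between days 5 and 3 and between days 7 and 5, 1 in Wnt3-conditioned media and 0 in D173A organoids. In IECs they were 4 with no filter, 1 with upper quartile scaling, 5 with DESeq2 and 1 with copies added. Upper quartile scaling gave 2 on day 3 and 0 in D173A organoids, fitting only the groups compared gave 3 on day 3 and 0 on day 10, and DESeq2 gave 1 in Wnt3-conditioned media. The cause of these changes was not tested.

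Leaving out 1 library, calls ranged from 2 to 4 in Cdk8KO, 0 to 1 in Cdk19KO, 19 to 23 in DKO and 20 to 24 in C57BL/6 organoids, 0 to 3 in IECs, 1 to 2, 11 to 12, 2 to 4 and 1 to 2 for the arms on days 3, 5, 7 and 10, 12 to 14, 0 to 1 and 19 to 20 between successive EtOH days, 12 to 14, 10 to 13 and 2 to 4 for the differences between days, 1 to 5 in Wnt3-conditioned media and 0 to 1 in D173A organoids. The count was 1 in Cdk19KO without C57BL/6 replicate 1, 1 for EtOH day 7 against 5 without EtOH day 7 replicate 3, 2 on day 3 without EtOH replicate 1 or 2 or 4-OHT replicate 1 or 3, and 2 on day 10 without replicate 2 of either arm. Without EtOH replicate 1 or 4-OHT replicate 3 the 1 call on day 10 was of a lower gene, mt-Tw (log2 fold change -1.69, adjusted p = 0.0303) or mt-Tl1 (-0.73, adjusted p = 0.0107), and mt-Atp6 was not called. In IECs it was 1 without VilCre replicate 1 or 3 or DKO replicate 1, and 0 without DKO replicate 3.

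As a percent of the counts of all other genes, the mitochondrial share was 8.17 in VilCre IECs, 6.62, 6.94 and 6.50 in Cdk19KO, C57BL/6 and DKO organoids, 5.76 with 4-OHT on day 3, and 4.12 and 3.90 in D173A organoids with EtOH and 4-OHT. Deviations of samples with the same replicate number correlated from -0.41 to 0.38, in no comparison above 0.1 for every number, so the numbers do not pair the libraries. With the replicate block (by column number, added after the data were seen, for Wnt3-conditioned media and D173A organoids) the IEC calls were 1, and no other count moved by over 1.5 times. The planned D173A comparison in IECs was not run.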
